A study of Homo sapiens with 6 samples.

Results

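The genes of 10 receptor-type protein tyrosine phosphatases were examined for DNA held by the nuclear matrix, out of 20037 protein-coding genes in the GRCh38 gene table. They were chosen by name and not by a cut on a measured value, although earlier results of these data were known. The genes were PTPRD, PTPRF, PTPRS, PTPRK, PTPRM, PTPRT, PTPRU, PTPRG, PTPRE and PTPRN2. A matrix-attached region was assigned to a gene when it overlapped the gene body by at least 1 bp. Together the genes spanned 7.14 Mb, and 6 of them were at least 300 kb long.

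Most, but not all, receptor tyrosine phosphatases remove phosphate from tyrosines of other proteins and so oppose receptor and cytoplasmic tyrosine kinases. Most pair an intracellular catalytic part with an ectodomain built from immunoglobulin-like, fibronectin type III, MAM or carbonic anhydrase-like modules, by which they act as adhesion molecules or as receptors for neighbouring cells. Several of their genes belong to the longest in the genome and are best known from neurons, where the proteins take part in axon growth and synapse formation.

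The regions came from MAR-seq, in which DNA that remains bound to the residual protein scaffold of the nucleus is sequenced. All samples were H1 human embryonic stem cells, a single established pluripotent line. Nuclei were exposed with Triton X-100 in the dish, fixed in formaldehyde and cut with MspI, HaeIII, RsaI, AluI, BamHI and PvuII. The 6 samples formed 3 groups of 2: untreated cells (hPSC), cells with a hairpin RNA named for luciferase (shLUC), taken as the hairpin control, and cells in which a hairpin targeted HNRNPU (shHNRNPU), whose product is an RNA-binding protein of the nuclear matrix. Neither the vector nor the day of harvest was given for the hairpin groups, and the lists hold no expression value by which the knockdown could be checked.

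One list of regions stood for each group, with 40106 regions for hPSC, 39368 for shLUC and 36277 for shHNRNPU, each 400 bp wide. Consequently no value below has a replicate error and no difference between lists was tested. Read depth is unknown. The hPSC list also differs from both hairpin lists in the presence of a hairpin, so an effect of the hairpin and a difference in batch or in region calling cannot be told apart.

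At the starts of these genes the hairpin lists and hPSC held different sets of regions, and the promoter sequences behind that comparison are shown first. RefSeq promoter windows of GRCh38.p14, from 250 bases before to 50 after a transcription start, were at hand for 9 of the genes, with 15 windows in all, and not for PTPRN2. In the shLUC list 7 of these 9 genes had a region over a window, against 19.4% of the 15843 protein-coding genes with a window. The shHNRNPU list had 6 of 9, against 20.6% of all genes. The hPSC list had only PTPRD and PTPRE, that is 2 of 9, although 36.4% of all genes had an hPSC region there. Among the 625 protein-coding genes of at least 300 kb with a window, the shares were 42.9% in hPSC, 35.5% in shLUC and 37.9% in shHNRNPU.

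PTPRF, PTPRS, PTPRK and PTPRM had a region over the window in both hairpin lists and not in hPSC, 44.4% of the genes against 6.91% of all protein-coding genes and 12.6% of those of at least 300 kb. PTPRD was covered in all 3 lists, PTPRG in shLUC, PTPRT in shHNRNPU, and PTPRE in hPSC at its first start and in hPSC and shLUC at an inner start. PTPRU had no region over its window. The 250 bases before the first start are given below for 1 gene of each of these combinations, read 5′ to 3′ on the strand of the gene. Capitals mark the recognition sequences of the enzymes used to free the unbound DNA: CCGG (MspI), GGCC (HaeIII), GTAC (RsaI), AGCT (AluI), GGATCC (BamHI) and CAGCTG (PvuII). Each reads the same on both strands, neighbouring motifs can share bases, and every CAGCTG also holds an AGCT.
PTPRD, chr9:10613003-10613252, minus strand: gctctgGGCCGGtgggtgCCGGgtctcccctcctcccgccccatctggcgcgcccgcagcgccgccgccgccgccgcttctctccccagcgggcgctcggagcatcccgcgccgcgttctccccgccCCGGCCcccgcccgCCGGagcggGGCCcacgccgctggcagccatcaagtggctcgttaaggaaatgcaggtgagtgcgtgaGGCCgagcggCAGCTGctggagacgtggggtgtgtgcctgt
PTPRK, chr6:128520600-128520849, minus strand: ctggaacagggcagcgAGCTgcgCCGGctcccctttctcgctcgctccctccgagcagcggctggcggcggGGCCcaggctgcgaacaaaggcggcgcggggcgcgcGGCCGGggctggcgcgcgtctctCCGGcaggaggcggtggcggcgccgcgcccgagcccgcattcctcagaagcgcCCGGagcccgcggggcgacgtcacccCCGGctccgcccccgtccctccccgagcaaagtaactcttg
PTPRT, chr20:43189907-43190156, minus strand: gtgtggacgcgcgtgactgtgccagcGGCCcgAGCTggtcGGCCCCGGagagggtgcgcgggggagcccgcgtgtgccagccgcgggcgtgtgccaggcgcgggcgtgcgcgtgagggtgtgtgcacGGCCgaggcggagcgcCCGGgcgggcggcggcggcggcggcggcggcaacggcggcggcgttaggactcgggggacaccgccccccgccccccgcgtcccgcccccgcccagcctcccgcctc
PTPRU, chr1:29236272-29236521, plus strand: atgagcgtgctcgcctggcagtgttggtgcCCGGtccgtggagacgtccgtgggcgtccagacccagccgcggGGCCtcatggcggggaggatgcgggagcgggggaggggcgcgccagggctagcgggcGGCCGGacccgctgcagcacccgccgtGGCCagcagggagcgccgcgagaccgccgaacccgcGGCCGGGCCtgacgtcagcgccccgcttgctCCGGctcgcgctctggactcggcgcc
PTPRG, chr3:61561321-61561570, plus strand: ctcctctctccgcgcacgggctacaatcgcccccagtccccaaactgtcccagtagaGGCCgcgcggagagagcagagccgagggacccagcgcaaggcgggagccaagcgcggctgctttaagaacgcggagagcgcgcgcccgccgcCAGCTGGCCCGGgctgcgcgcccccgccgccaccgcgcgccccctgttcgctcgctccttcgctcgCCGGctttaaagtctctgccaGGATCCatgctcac
PTPRE, chr10:127906853-127907102, plus strand: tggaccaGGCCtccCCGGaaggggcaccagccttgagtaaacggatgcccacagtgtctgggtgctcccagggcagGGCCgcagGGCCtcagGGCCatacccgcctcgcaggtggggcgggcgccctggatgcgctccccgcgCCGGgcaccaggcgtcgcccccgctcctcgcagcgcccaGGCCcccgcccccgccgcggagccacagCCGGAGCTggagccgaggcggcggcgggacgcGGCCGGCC

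The PTPRD stretch lay in regions of all lists, with 176 of the 250 bases in the hPSC region and 226 in the region that both hairpin lists shared. All 250 bases of PTPRK lay in a region of both hairpin lists. For PTPRT, 185 bases lay in a shHNRNPU region, for PTPRG 102 in a shLUC region and for PTPRE 209 in an hPSC region. The PTPRU stretch, with 77.6% G and C and 9 motifs, was as rich in both as the others shown, which had 71.2 to 82.8% G and C and 6 to 12 motifs. No GTAC was present in any of these stretches.

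Motifs of this kind were common in all promoters. Of 22199 windows, CCGG was in 74.0%, GGCC in 84.3%, GTAC in 28.0%, AGCT in 73.6%, GGATCC in 7.22% and CAGCTG in 18.0%, and 98.8% held at least 1 of them. The 9 windows of the phosphatase genes with a region had a median of 76.3% G and C (65.3 to 81.7%), 40 CpG and 11 motifs. The 6 windows without a region had 43.7% (41 to 78.7%), 4.50 CpG and 3.50 motifs, with PTPRU at the upper end. Apart from PTPRU, the windows without a region were inner starts, with 41 to 45.3% G and C. Those with a region were first starts, apart from the inner start of PTPRE. Base content and kind of start therefore cannot be told apart in these genes. Over all genes, windows with a region were also richer in G and C, with medians of 65.7% in hPSC and 71.3% in each hairpin list against 62.3% in all windows.

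**Figure D1:**
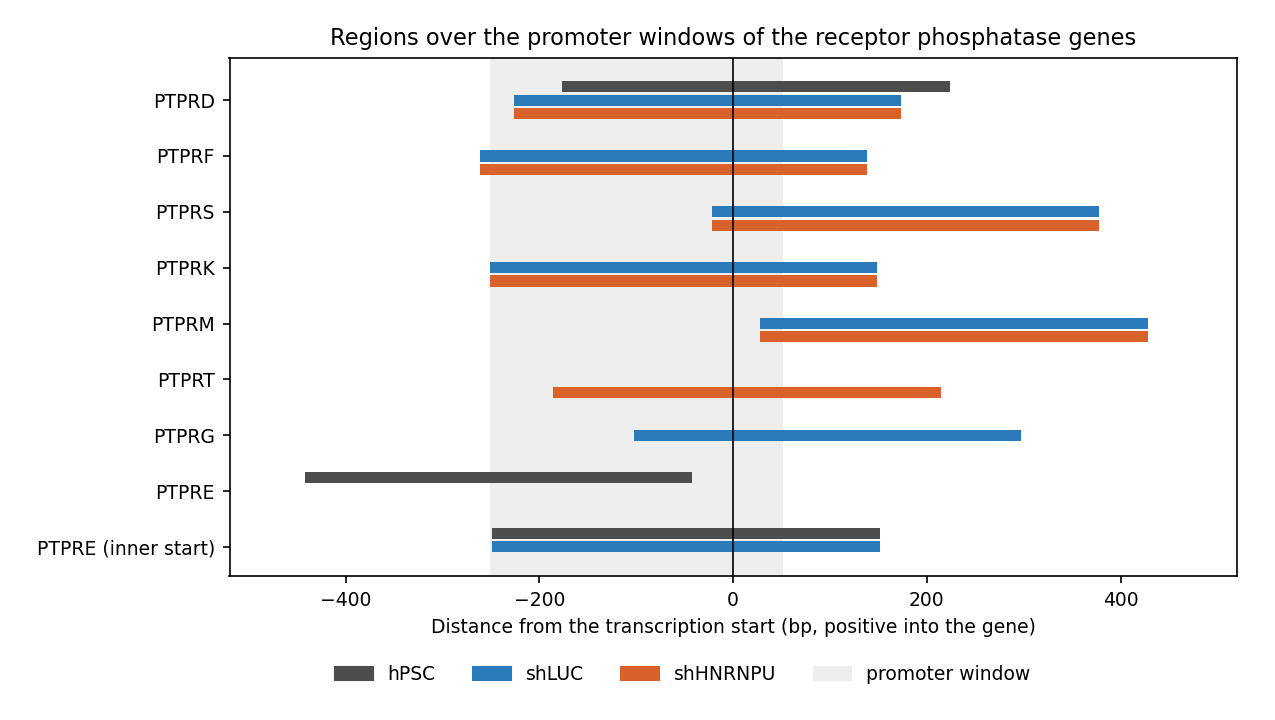
Regions (bars of 400 bp) drawn by distance in bp from the transcription start, positive into the gene, for each promoter window with a region; grey shading is the window from 250 bases before to 50 after the start. Both hairpin lists have a bar at PTPRD, PTPRF, PTPRS, PTPRK and PTPRM, where hPSC has a bar at PTPRD only.

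Some regions lay close to a start but outside the window. In hPSC the nearest region to the first start was centred 1.26 kb into PTPRK and 2.11 kb into PTPRS. At PTPRE, where the hPSC region over the window was centred 242 bp before the start, both hairpin lists had a region 352 bp into the gene, outside the promoter window. Counting regions centred within 1 kb of the first start gave 2 of 9 genes in hPSC and 7 of 9 in each hairpin list. The share of all protein-coding genes was not counted at this distance, so these numbers have no background. For the remaining genes the nearest hPSC region was 5.63 kb (PTPRU), 15.8 kb (PTPRF), 16.5 kb (PTPRG) and 27.7 kb (PTPRT) before the start, and 213 kb into PTPRM.

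Across whole gene bodies the phosphatase genes held 76 hPSC, 108 shLUC and 109 shHNRNPU regions, or 10.6, 15.1 and 15.3 per Mb. The density was thus lowest in untreated cells and nearly equal in the hairpin lists. All protein-coding genes had 18.5, 18.3 and 17.1 regions per Mb, and those of at least 300 kb had 11.7, 12.1 and 11.2. The 6 long phosphatase genes had 9.95, 13.6 and 13.4 per Mb, and the 4 shorter ones had 19.8, 35.6 and 39.5, against 22.0, 21.5 and 20.1 for all genes under 300 kb.

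Flanks taken at the same length on each side of the genes held 14.1 regions per Mb in hPSC, 13.7 in shLUC and 12.2 in shHNRNPU. The pooled density in the genes relative to their flanks was therefore 0.752 in hPSC, 1.10 in shLUC and 1.25 in shHNRNPU. Flanks were not cut at chromosome ends, and the upper flank of PTPRN2 runs past the end of chromosome 7. The flank densities are thus somewhat too low and these ratios somewhat too high. The genes did not share the low hPSC ratio. In hPSC the gene body was below its flanks in PTPRD, PTPRF, PTPRM and PTPRT. It was equal to them in PTPRG and PTPRE, and above them in PTPRS, PTPRK and PTPRU. For PTPRN2 the hPSC values were 22.9 per Mb in the body and 20.5 in the flanks. The flank value is too low for the reason given, so the direction is not settled. Pooled over the genes, the hPSC list had the lowest density of the lists in the gene bodies and the highest in the flanks.

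**Figure D2:**
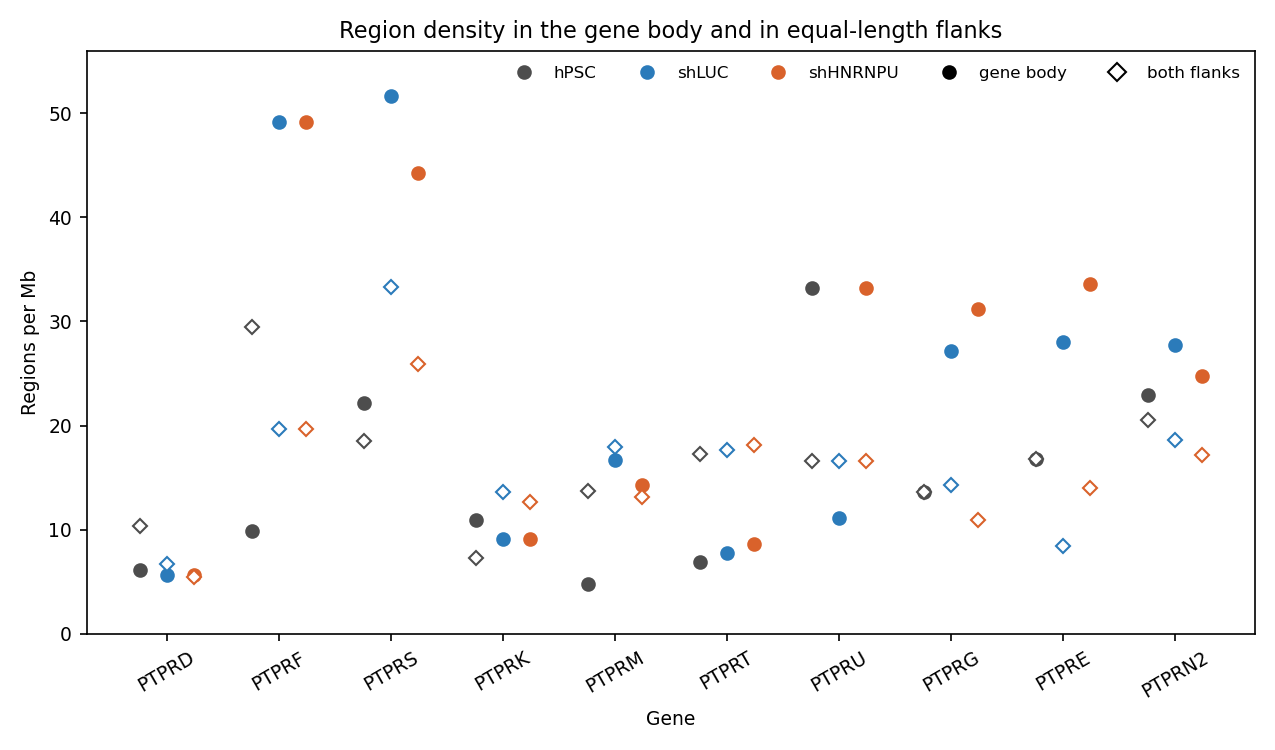
Regions per Mb (y axis) in the body of each gene (filled circles) and in both flanks of equal length (open diamonds), coloured by list. The flank values of PTPRN2 are too low, as its upper flank runs past the chromosome end. PTPRG stands at 13.6 in hPSC and at 27.2 and 31.2 in the hairpin lists, whereas PTPRD stays near 6 in all of them.

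The type IIa group comprises PTPRD, PTPRF (also known as LAR) and PTPRS, cell adhesion receptors that recruit liprins inside the cell and pair with postsynaptic partners across the synapse. PTPRD (chromosome 9, 8314246 to 10613002, minus strand) was the longest gene at 2299 kb and among the sparsest, with 14 hPSC, 13 shLUC and 13 shHNRNPU regions. Its density of 6.09, 5.66 and 5.66 per Mb was above that of 18.2%, 14.7% and 15.7% of genes of at least 300 kb in the respective lists. Of the 13 regions in each hairpin list 11 (84.6%) overlapped a region of the other, against 70.8% of the whole shLUC list and 76.8% of the whole shHNRNPU list. In shHNRNPU the longest empty stretch was the 543 kb at the 3′ end of PTPRD, 23.6% of the gene. It lay beyond the last region, a site that all lists shared. Past that site hPSC had 5 regions and shLUC 2, so the difference between the hairpin lists there rests on 2 calls.

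PTPRF (chromosome 1, 43522051 to 43623666, plus strand) spans 102 kb and had 1 region in hPSC and 5 in each hairpin list. This amounted to 9.84 per Mb against 49.2, while its flanks went the other way, with 29.5 in hPSC and 19.7 in each hairpin list. The promoter window used above lies inside the gene body, as the gene table starts the gene further upstream. PTPRS (chromosome 19, 5205508 to 5340812, minus strand), a receptor for chondroitin and heparan sulfate proteoglycans, had 3, 7 and 6 regions in 135 kb. The 46.1 kb at its 3′ end, the longest stretch without an hPSC region and picked for that, held 4 regions of each hairpin list. Picked in the same way, the longest stretches without a shLUC region (52.4 kb) and without a shHNRNPU region (55.6 kb) each held 1 hPSC region.

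The type IIb group, with a MAM domain in the ectodomain, comprises PTPRK, PTPRM, PTPRT and PTPRU, most of which bind the same receptor on an adjacent cell at junctions. PTPRM showed the widest gap between untreated and hairpin lists in this group. In its 840 kb (chromosome 18, 7567316 to 8406856, plus strand) there were 4 hPSC regions, 14 shLUC and 12 shHNRNPU regions. The shLUC count was 3.50-fold and the shHNRNPU count 3-fold that of hPSC. The longest stretch without an hPSC region was 464 kb, 55.3% of the gene, from 7780959 to 8245114. It was picked for being empty in hPSC, and held 8 shLUC and 7 shHNRNPU regions. Picked in the same way, the longest stretch without a shLUC region, 200 kb, held 1 hPSC region. That without a shHNRNPU region, 206 kb, held 0. At the start of PTPRM each hairpin list had a pair of regions that overlapped one another by 113 bp (7567345 to 7567744 and 7567632 to 7568031).

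PTPRK (chromosome 6, 127968785 to 128520599, minus strand) had similar numbers in all lists. It had 6 hPSC regions and 5 in each hairpin list over 552 kb. The 5 hairpin regions were the same in shLUC and shHNRNPU, and 0 of the 6 hPSC regions overlapped any of them. Over the whole hPSC list only 14.0% of regions overlapped shLUC and 15.6% shHNRNPU, so this does not set PTPRK apart. In PTPRF, PTPRS, PTPRU and PTPRG no hPSC region overlapped shLUC either. PTPRT (chromosome 20, 42031890 to 43189906, minus strand), a largely neuronal receptor, had 8, 9 and 10 regions in 1158 kb. Its density of 6.91, 7.77 and 8.64 per Mb was below that of its flanks in each list, at 17.3, 17.7 and 18.1.

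PTPRU (chromosome 1, 29236522 to 29326800, plus strand), the shortest gene at 90.3 kb, had 3 regions in hPSC, 1 in shLUC and 3 in shHNRNPU. The equal counts were not the same regions, since hPSC shared none with shHNRNPU, where 15.6% of the whole hPSC list did. In shLUC the first 81.1 kb of PTPRU, 89.9% of the gene, was empty. With so few regions, a difference of this size rests on single calls.

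PTPRG, whose ectodomain resembles carbonic anhydrase and binds contactins, had the highest density of the long genes in shHNRNPU. The gene (chromosome 3, 61561571 to 62297609, plus strand, 736 kb) had 10 hPSC, 20 shLUC and 23 shHNRNPU regions. Its density was above that of 59.6% of genes of at least 300 kb in hPSC, 96.2% in shLUC and 98.8% in shHNRNPU. The flanks differed little, with 13.6, 14.3 and 10.9 per Mb. The longest stretch without an hPSC region, 212 kb between 459 and 671 kb from the start, held 8 shLUC and 10 shHNRNPU regions. The longest without a shHNRNPU region, 115 kb, held 3 hPSC regions, and that without a shLUC region, 113 kb, held 1.

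PTPRE (chromosome 10, 127907103 to 128085855, plus strand), which has a short ectodomain and exists in membrane-bound and cytoplasmic forms, had 3, 5 and 6 regions in 179 kb. The first 129 kb of the gene, 71.9% of its length, was the longest stretch without an hPSC region and held 4 regions of each hairpin list. It was picked for being empty in hPSC, and the hPSC region over the promoter window ends just before it. The longest stretch without a region of either hairpin list was the same 56.3 kb, which held 0 hPSC regions. PTPRN2 (chromosome 7, 157539056 to 158587823), a protein of dense-core vesicles also called phogrin, was the gene with most regions, at 24, 29 and 26 over 1049 kb. Its density was above that of at least 90.4% of genes of at least 300 kb in every list. The longest stretch of PTPRN2 without a region was the same 189 kb in both hairpin lists, from 158068147 to 158257562, where hPSC had 4. The longest without an hPSC region, 160 kb, held 6 shLUC and 5 shHNRNPU regions.

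**Figure D3:**
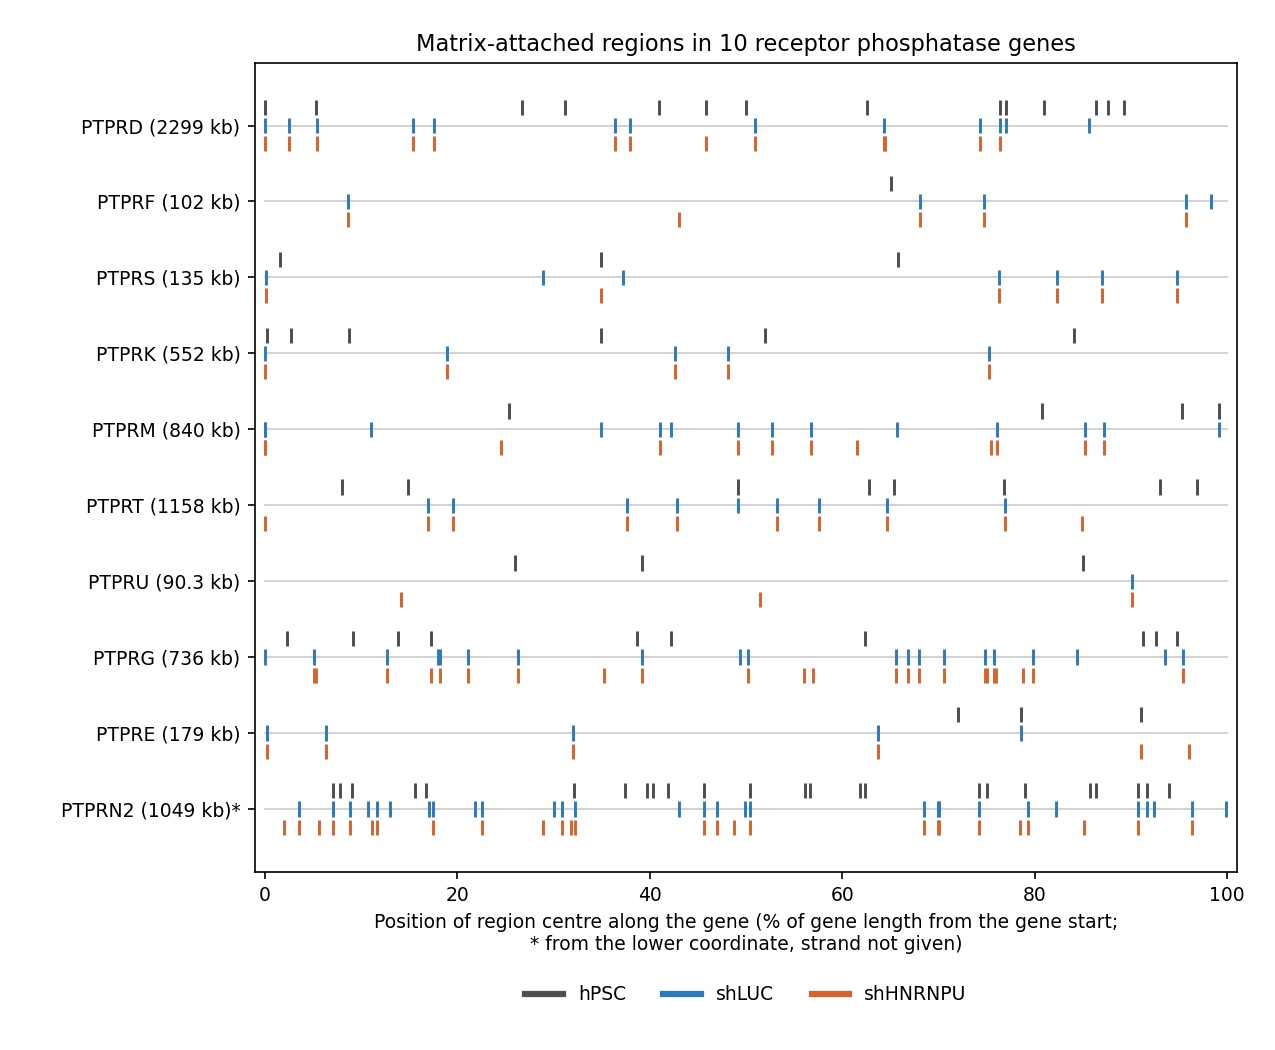
Centre of each region along the 10 genes, in percent of gene length from the gene start (PTPRN2 from its lower coordinate), with 1 row of ticks per list. The blue and orange ticks mostly coincide, and hPSC ticks are missing over the middle of PTPRM and the first part of PTPRE.

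The effect of the HNRNPU hairpin was read against the hairpin control. From shLUC to shHNRNPU the number of regions was lower in 3 genes (PTPRS, PTPRM and PTPRN2), equal in 3 (PTPRD, PTPRF and PTPRK) and higher in 4 (PTPRT, PTPRU, PTPRG and PTPRE). No gene differed by more than 3 regions. Among the 11737 protein-coding genes with a region in either list, 30.3% had fewer and 22.5% had more in shHNRNPU. Among those of at least 300 kb, 49.0% had fewer and 28.1% more. The log2 ratio of the pooled counts was 0.01, compared with -0.12 for the list totals and -0.10 over all protein-coding genes. Relative to the list totals it was 0.13.

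The untreated cells were set against the same shLUC list, so the comparisons are not independent of each other. The hPSC list had fewer regions in 7 genes, more in 3 (PTPRD, PTPRK and PTPRU) and an equal number in 0. Among the 7 was PTPRE, which had 5 regions in each of these lists when the gene was extended by 5 kb. Over 14248 protein-coding genes, 36.1% had fewer and 41.1% had more. Among the 768 of at least 300 kb, 47.4% had fewer and 40.6% more. The log2 ratio of the pooled counts was -0.51, whereas it was 0.01 over all protein-coding genes and 0.03 for the list totals. PTPRG and PTPRM each had 10 regions fewer in hPSC, and together they made up most of the gap between 76 and 108.

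Whether the lists placed regions at the same positions was asked next. In the phosphatase genes 80 of 108 shLUC regions (74.1%, Wilson 95% interval 65.1 to 81.4%) overlapped a shHNRNPU region, close to the 70.8% of the whole list. All 80 had identical coordinates in both lists, as did 27865 of the 27868 overlapping regions of the whole shLUC list. Seen from shHNRNPU, the share was 73.4% (64.4 to 80.8%) against 76.8%. These intervals cover counting error only, and the whole-list shares lay within them. Over the whole lists, only 31.0% of hPSC regions that overlapped shLUC had identical coordinates, and 37.5% of those that overlapped shHNRNPU. Whether the hairpin lists were called separately or from a common set of regions was not tested. Their shared positions therefore cannot be read as independent calls, nor as positions left unchanged by the knockdown.

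Overlap with untreated cells was far lower. Of the 108 shLUC regions 10 overlapped an hPSC region (9.26%, 5.11 to 16.2%), against 14.2% in the whole list. Counting centres within 5 kb raised the share to 24.1%, against 27.5% in the whole list. Of the 109 shHNRNPU regions it was 9 (8.26%, 4.40 to 15.0%). The whole-list share of 17.3% lay above that interval, and the 14.7% found in all genes of at least 300 kb lay within it. Seen from hPSC, 13.2% (7.31 to 22.6%) overlapped shLUC and 11.8% (6.36 to 21.0%) shHNRNPU. Within 5 kb, 32.9% of the hPSC regions had a shLUC region, against 27.1% in the whole list. Identical coordinates were found in 4 of the 10 overlaps with shLUC (40%, against 31.0% in the whole list). The same held for 3 of the 9 with shHNRNPU (33.3%, against 37.5%).

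**Figure D4:**
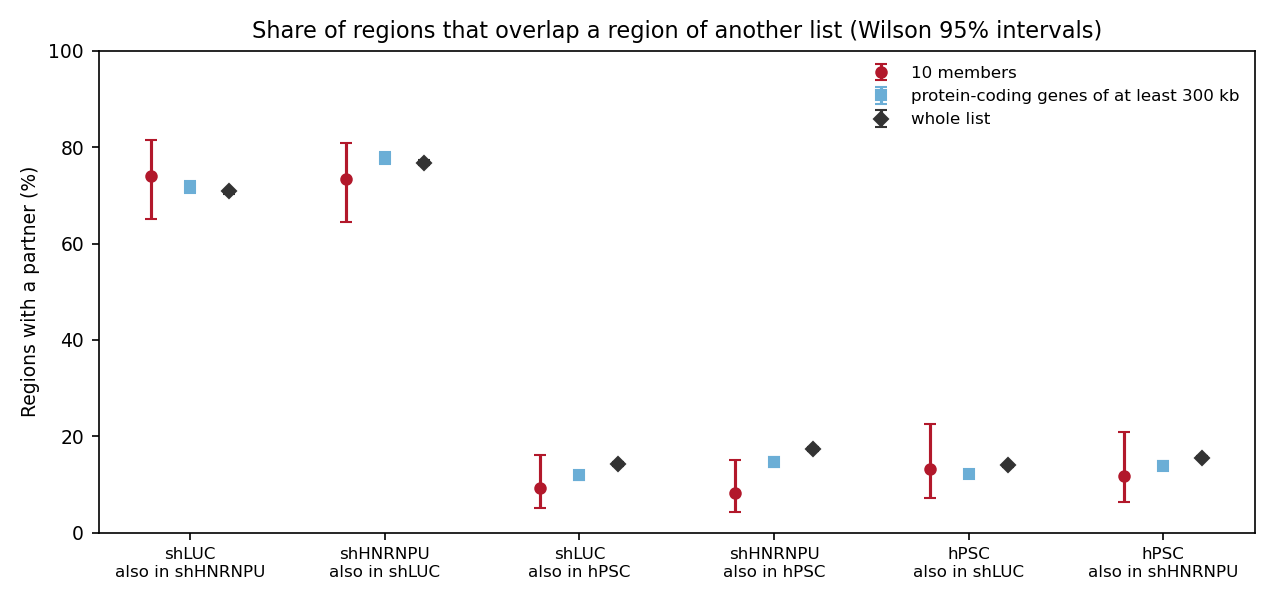
Percentage of the regions of a list that overlap a region of another list by at least 1 bp, in the 10 phosphatase genes (members), in protein-coding genes of at least 300 kb and in the whole list; bars are Wilson 95% intervals. The hairpin lists share 74.1% and 73.4% of the regions in these genes, and no share with hPSC in these genes exceeds 13.2%.

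Joining overlapping regions of the lists gave 198 sites in the genes. Both hairpin lists without hPSC held 74 of them (37.4%, against 30.1% of the 79766 sites in the genome), and these occurred in all 10 genes. The hPSC list alone held 62 (31.3%, against 40.1%), again spread over 10 genes. The shHNRNPU list alone held 25 (12.6%, against 7.43%) and the shLUC list alone 23 (11.6%, against 12.2%).

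Sites common to all 3 lists were rare, with 5 (2.53%, against 4.75%) in only PTPRD and PTPRN2. In PTPRD they were the promoter described above and 8857586 to 8857988, which lies 1755 kb into the gene. In PTPRN2 they were 157613157 to 157613749, 158067728 to 158068146 and 158489580 to 158490184. Sites in hPSC and shLUC but not in shHNRNPU numbered 5, in PTPRD, PTPRM, PTPRT, PTPRE and PTPRN2. A further 4 were in hPSC and shHNRNPU only, in PTPRD, PTPRS, PTPRG and PTPRE. PTPRF, PTPRK and PTPRU, with 7, 11 and 6 sites, had none that joined hPSC to a hairpin list. In the genome 4.75% of sites were in all lists, 2.27% in hPSC and shLUC only and 3.11% in hPSC and shHNRNPU only. With so few sites, having none does not set these genes apart.

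**Figure D5:**
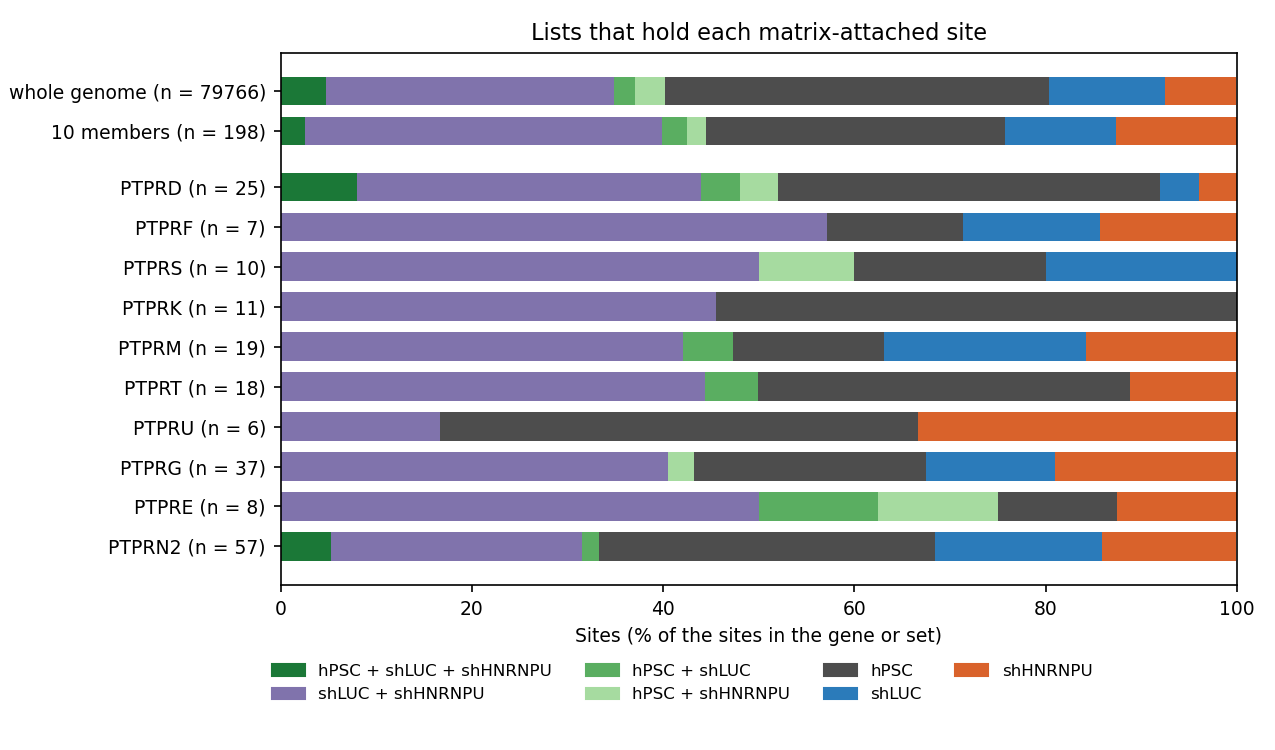
Share of sites (x axis, percent) by the lists that hold them, in the genome, in the 10 phosphatase genes (members) and in each gene, with the number of sites in brackets. PTPRK is split between sites of both hairpin lists and sites of hPSC alone, and sites of all lists (dark green) appear in PTPRD and PTPRN2.

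The regions were not gathered at 1 end of the genes. In the 9 genes with a known strand, the first, middle and last part of equal length held 16, 16 and 20 regions in hPSC, 25, 25 and 29 in shLUC and 26, 28 and 29 in shHNRNPU. The first part thus held 30.8%, 31.6% and 31.3%, compared with 51.2%, 43.8% and 45.4% over all protein-coding genes with a strand and 37.5%, 36.4% and 36.9% over those of at least 300 kb.

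Neighbouring regions within a gene lay a median of 44.9 kb apart in hPSC, over 66 gaps. In shLUC the median was 37.7 kb over 98 gaps, and in shHNRNPU it was 34.8 kb over 99. Genes of at least 300 kb had medians of 45.5, 46.5 and 49.8 kb, and all protein-coding genes had 27.9, 25.9 and 28.5 kb. The phosphatase medians pool long and short genes, so neither background matches them in gene length. The genes differed widely in spacing. PTPRN2 had medians of 24.0, 23.3 and 20.0 kb and PTPRG of 34.4, 30.7 and 21.0 kb, whereas PTPRD had 113, 132 and 90.5 kb. PTPRM had gaps with a median of 122 kb in hPSC, against 58.5 kb (shLUC) and 38.7 kb (shHNRNPU).

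None of the genes overlapped another protein-coding gene, but 8 of the 10 overlapped non-coding genes or pseudogenes, up to 7 in PTPRT, PTPRG and PTPRN2. A region there cannot be assigned to one gene rather than the other. Exon and intron positions are not analysed here.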

How the data were processed

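The deposited lists give a chromosome, start and end for each region, as positions that the authors assigned to the group and not to a sample. Their score column held 0 throughout, so no height or p-value was used. The submitters' processing notes name the build hg38 and the tools cutadapt, Bowtie2, SAMtools, MACS2 and deepTools, without version. How 2 samples became 1 list, the calling threshold, the use of the input and the tag rp1 in the hPSC region names are not given in the sources used here. A looser threshold or deeper library would give more regions.

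Start positions were raised by 1 to count from 1. Regions were intersected with the RefSeq gene table and promoter windows of GRCh38.p14 in Python 3.11.15 with numpy 2.4.6 and pandas 2.3.3, figures were drawn with matplotlib 3.10.9, and counting was tested on simulated lists. Density is regions per Mb of gene, a gap is the distance between neighbouring regions, and intervals for shares are Wilson 95% intervals. The genes and all gene lists were chosen with earlier results of these data known. All 10 genes are named, with every other receptor phosphatase, the 3 genes with most regions in each partner list and the 3 long genes nearest in density. Other genes in observations were named after their values were seen.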

Additional observations from a re-analysis of the deposited data

How the results depend on the processing

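No paired analysis was possible because the files hold 1 list for a group and none for a sample. For the same reason no replicate could be left out, and a stricter threshold could not be set because all scores are 0. Of 172 values recomputed with region centres, 50% overlap, joined regions, extended genes, 5 kb distances, list-size scaling or without PTPRN2, all but 5 stayed within 1.5 times or within the counting interval. Counting centres within 5 kb as shared raised the share of shLUC regions also in hPSC to 24.1%, of hPSC regions also in shLUC to 32.9% and of hPSC regions also in shHNRNPU to 28.9%. Within 5 kb of a gene end hPSC had 5 regions, where a wider distance can only keep or raise the count. Extending PTPRE by 5 kb raised its hPSC regions from 3 to 5, while shLUC stayed at 5 and shHNRNPU at 6. The lower hPSC than shLUC count of PTPRE thus depends on where the gene is taken to end. The pooled log2 ratio of shHNRNPU to shLUC was 0.01 and became -0.01 with joined regions, so its sign is not settled. That of hPSC to shLUC stayed between -0.60 and -0.47.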

Other observations

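The other 10 receptor phosphatase genes together had 27 hPSC, 32 shLUC and 26 shHNRNPU regions over 1.64 Mb, or 16.5, 19.6 and 15.9 per Mb. From shLUC to shHNRNPU the number was lower in 5, equal in 4 and higher in 1, whereas 30.3% of all protein-coding genes with a region in either list had fewer and 22.5% more. PTPRJ, which acts on growth factor receptors, had most in the hairpin lists, with 3, 9 and 7 in the order hPSC, shLUC, shHNRNPU. PTPRR, a phosphatase of MAP kinases, had 4, 0 and 2. PTPRZ1, a chondroitin sulfate proteoglycan receptor, had 4, 6 and 3. PTPRA had 5, 4 and 3, and PTPRB, found in endothelium, had 1, 4 and 3. PTPRO had 3, 2 and 2, and PTPRQ, a protein of inner ear hair cells, had 3, 3 and 2. The remaining genes were equal in all lists, with 1 region each in PTPRC (CD45) and PTPRH and 2 in PTPRN.

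Cell-surface partners of these receptors (16 genes) had 36, 48 and 41 regions, and from shLUC to shHNRNPU the count was lower in 5, equal in 9 and higher in 2, against the same 30.3% and 22.5%. The equal genes include SLITRK2, SLITRK3, SLITRK4 and SLITRK6, with 0 regions in both hairpin lists. The contactin genes CNTN4 with 8, 14 and 10 and CNTN5 with 11, 9 and 8 held most when summed over the lists. NTRK3, the neurotrophin receptor TrkC, was next by that sum, with 5, 4 and 4. Of the SLITRK genes, SLITRK2, SLITRK3 and SLITRK4 also had 0 regions in hPSC. Partners inside the cell (7 genes) had 30, 18 and 20 regions, so that here hPSC held most. TRIO, a guanine nucleotide exchange factor, had 12, 7 and 11. PPFIA2, a liprin-alpha, had 2, 4 and 3, and PPFIBP1, a liprin-beta, had 2, 2 and 3. PPFIA3, with 5 hPSC regions and 0 in each hairpin list, is named after its values were seen.

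Among 767 protein-coding genes of at least 300 kb, ST6GALNAC3, ZRANB3 and SPATA13 had densities most like the pooled phosphatase genes over the 3 lists. Their Euclidean distances were 1.16, 1.37 and 1.58 regions per Mb.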
